A study of Mus musculus with 14 samples.

Results

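A set of 9 genes of Notch receptor cleavage and of the nuclear complex that reads it out were followed in cochlear supporting cells (SCs). They were taken by symbol from the deposited counts, 9 of 35976 gene symbols. Adam10 encodes the protease that sheds the Notch ectodomain. Psen2, Ncstn, Aph1a, Aph1b, Aph1c and Psenen encode subunits of γ-secretase, the enzyme that compound E inhibits. Rbpj and Maml1 encode the DNA-binding protein and a coactivator of the Notch nuclear complex. SCs carrying an Lfng-EGFP transgene, in which regulatory sequence of Lfng drives EGFP, were sorted by fluorescence from explants cultured for 24 h with 2 µM compound E or the same volume of DMSO. There were 4 libraries per treatment at P0 (P0-P1 in the culture protocol) and 3 per treatment at P6, and every group carried the transgene. The paper's dissociation protocol pooled 4 organs per tube, while its legend for the bulk comparison gives a different number of cochleae. P-values therefore measure the spread between libraries, which in fits without a block includes the spread between batches. Lfng is itself a Notch target gene, so the marker that defined the sorted cells could move with the treatment.

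When a Notch receptor binds its ligand on a neighboring cell, Adam10 removes the extracellular part of the receptor and γ-secretase then cuts the remaining stub within the membrane. The presenilin subunit, here Psen2, holds the catalytic site. Nicastrin (Ncstn) admits the stub, an Aph1 protein serves as the scaffold, and Pen-2 (Psenen) activates the complex. The released intracellular domain enters the nucleus, binds Rbpj and recruits Maml1, and genes such as Hes1, Hes5 and Hey1 are then transcribed. Without the intracellular domain, Rbpj stays with corepressors. In the cochlea this pathway keeps SCs from taking the hair cell fate.

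The promoters of the genes that passed the thresholds in a comparison (Psen2 with treatment, Psenen and Aph1a with age) are shown because Rbpj binds the core TGGGAA, here searched on both strands (its reverse complement is TTCCCA) in 300-base RefSeq windows of GRCm38.p6 around annotated starts. Capitals mark the matches, and all windows are written 5′ to 3′ on the strand of the gene, which is minus for Psen2 and Psenen and plus for Aph1a.
Psen2 inner window, chr1:180245901-180246200: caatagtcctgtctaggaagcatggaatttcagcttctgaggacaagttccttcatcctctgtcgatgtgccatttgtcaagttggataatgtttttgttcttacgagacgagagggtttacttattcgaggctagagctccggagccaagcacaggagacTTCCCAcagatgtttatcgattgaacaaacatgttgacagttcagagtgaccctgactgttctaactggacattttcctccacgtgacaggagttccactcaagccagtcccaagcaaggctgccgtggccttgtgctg
Psen2 outer window, chr1:180256251-180256550: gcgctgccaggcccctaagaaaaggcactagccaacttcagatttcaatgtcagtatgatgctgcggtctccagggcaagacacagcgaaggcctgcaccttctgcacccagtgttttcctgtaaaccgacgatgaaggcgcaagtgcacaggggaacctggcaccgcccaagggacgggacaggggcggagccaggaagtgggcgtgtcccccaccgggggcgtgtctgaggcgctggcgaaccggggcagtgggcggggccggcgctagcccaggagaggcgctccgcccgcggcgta
Psenen window, chr7:30563155-30563454: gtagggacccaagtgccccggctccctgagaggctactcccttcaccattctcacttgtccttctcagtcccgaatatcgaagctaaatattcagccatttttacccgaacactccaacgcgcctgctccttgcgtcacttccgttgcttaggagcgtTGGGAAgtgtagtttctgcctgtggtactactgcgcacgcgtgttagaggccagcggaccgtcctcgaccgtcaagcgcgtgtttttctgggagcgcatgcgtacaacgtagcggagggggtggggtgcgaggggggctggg
Aph1a window, chr3:95893671-95893970: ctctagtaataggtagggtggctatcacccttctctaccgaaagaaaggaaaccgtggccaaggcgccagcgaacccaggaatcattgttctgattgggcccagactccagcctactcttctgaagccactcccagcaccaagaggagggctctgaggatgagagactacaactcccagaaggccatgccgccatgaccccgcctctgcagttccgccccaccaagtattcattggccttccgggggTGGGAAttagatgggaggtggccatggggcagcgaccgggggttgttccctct
The Psen2 inner window held the core on the opposite strand, its first base 89 bases before the start. With the base that follows it there, it was also a match to the longer form GTGGGAA. The outer Psen2 window, which lies farther upstream in the gene's direction, held no match. In the Psenen window the core stood 92 bases before the start, and a further Psenen window, chr7:30563578-30563877, held none. Aph1a had the longer form 4 bases before the start. Of the other members, Rbpj held the core in both of its windows and Ncstn, Aph1b, Aph1c, Adam10 and Maml1 held none. The Rbpj windows (chr5:53590096-53590395 and chr5:53590236-53590535) overlap, and the TTCCCA match of the later window is the same site as in the earlier window. Over all 32851 promoter windows, 25.6% held the core and 6.38% the longer form. By gene, counting a match in any of its windows, the shares were 28.3% and 7.25% of 27025 genes. A match to the core is therefore a common feature, and a match says nothing about binding in these cells.

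Library totals were 19415066 to 44430063 counts on genes at P0 and 23972228 to 41207627 at P6 (P0 DMSO replicate 1 had the least Lfng of its group, 1144 RPM against 3164 to 3677 RPM), and every member had at least 142 counts in every library. Levels below are in RPM, a gene's share of its library's counts on the usual reads-per-million scale, and log2 fold changes come from edgeR's quasi-likelihood test over all genes tested. Calls needed 2-fold or more in either direction together with 0.01 or less for the p adjusted by Benjamini and Hochberg's method. Each of the 8 SC markers was detected in every library. As a check of the inhibition, all 7 Notch target genes examined were lower with compound E at P0 and 5 were called by edgeR (Hes1, Hey1, Hey2, Heyl and Nrarp). With the replicate number as a block all 7 were called. At P6 all 7 were lower and edgeR called 0, with or without the block, with 6 at an unadjusted p under 0.05 in the fit without it. DESeq2 called 3 of the 7 at P6 (Hes1, Hes5 and Nrarp). Hes1, for example, had mean levels of 116 RPM with DMSO and 18.0 RPM with compound E at P0, and 42.4 and 11.3 RPM at P6.

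Of the 9 genes, Psen2 alone was called with compound E at P0, and it fell. With DMSO, Psen2 stood at 36.1, 34.2, 23.6 and 33.8 RPM in replicates 1 to 4, and with compound E at 14.5, 17.1, 14.1 and 12.1 RPM. The lowest DMSO library was above the highest compound E library. Means were 31.9 ± 5.64 RPM (SD, n = 4) with DMSO and 14.5 ± 2.07 RPM (SD, n = 4) with compound E, which is 2.26-fold lower (log2 fold change −1.18, SE 0.166, edgeR adjusted p = 0.00387). The decrease was present in each batch. The log2 ratio of the pair was −1.31 in batch 1, −1.0 in batch 2, and −0.74 and −1.49 in the 2 pairs of batch 3. Among all 15937 genes tested 1.22% were called, 0.985% as lower, and 4.76% were lower with no overlap between the treatments.

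The size of the Psen2 decrease was stable while its call was not. Without any single P0 library or any P0 pair the log2 fold change stayed between −1.29 and −1.07. The adjusted p of edgeR rose above 0.01, to between 0.0130 and 0.0205, without compound E replicate 1, 3 or 4 or DMSO replicate 2 or 4. It was 0.0142, 0.0185, 0.0180 and 0.0728 without both libraries of replicate 1, 2, 3 or 4, which are alternatives added after the data were seen. The count over all genes moved too, from 1.22% called to between 0.493% and 1.39% without a single library. Calls over all genes fell by more than 1.5 times without compound E replicate 3 (80 genes) or 4 (84), or DMSO replicate 2 (111) or 4 (113). Without both libraries of a replicate, 206, 69, 44 and 1 genes were called for replicates 1 to 4, the last being 0.0062%.

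**Figure D1:**
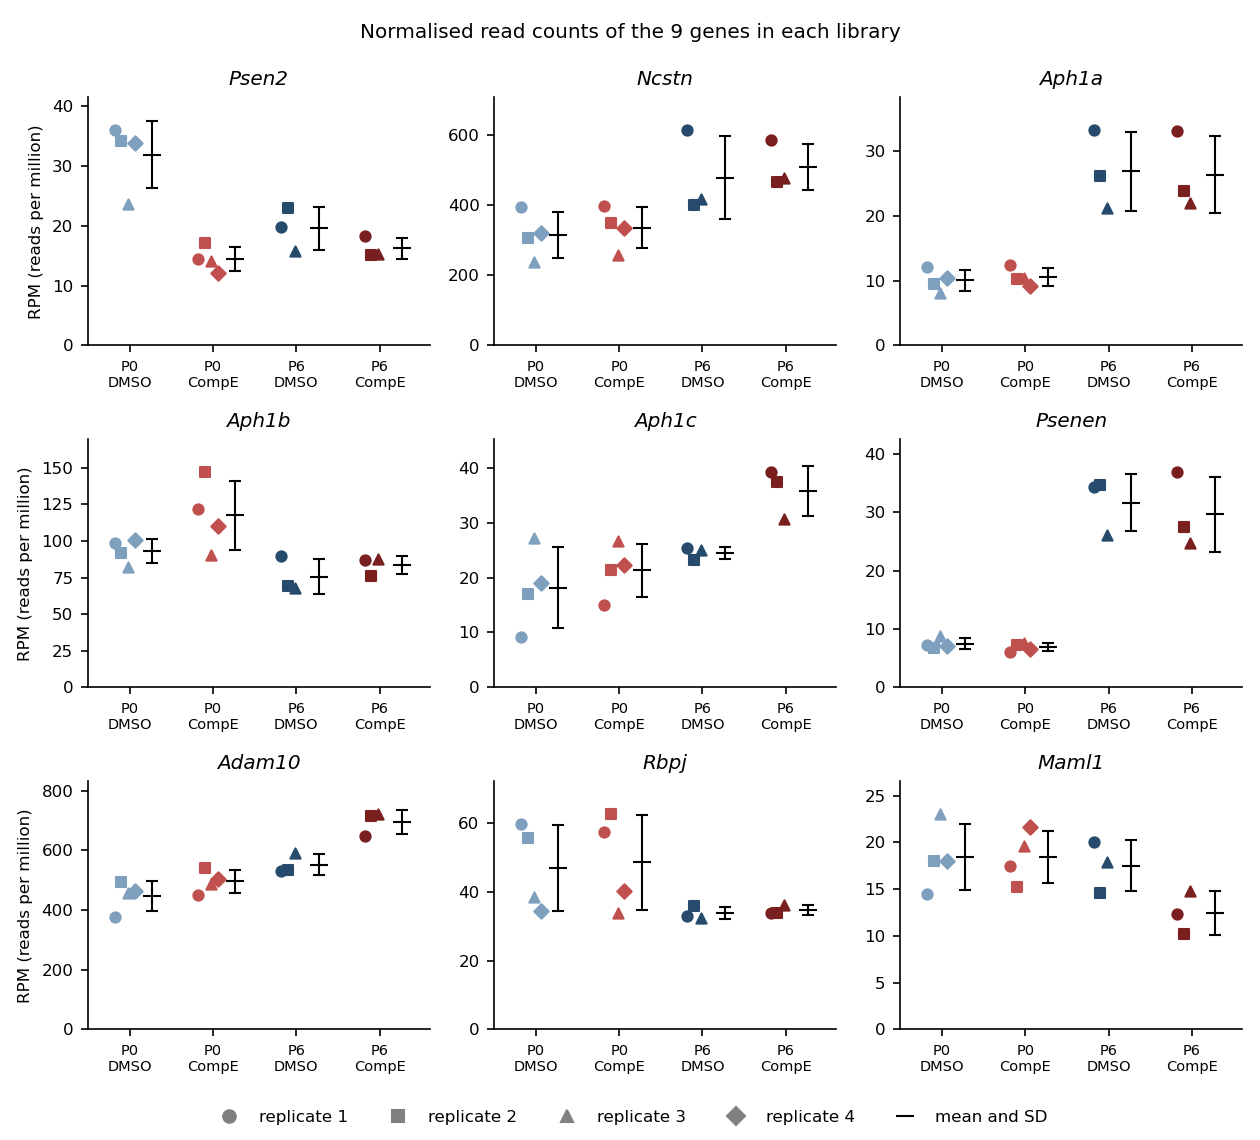
Each panel plots RPM (linear axis from 0) of a gene in the 14 libraries by group, with a symbol for each replicate number and the group mean with its SD beside them. Psen2 at P0 separates DMSO (23.6 to 36.1 RPM) from compound E (12.1 to 17.1 RPM), and Psenen and Aph1a separate P6 from P0.

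Markers moved with the same contrast. Summed over the 8 SC markers, levels were 4825 to 9629 RPM with DMSO and 4242 to 4789 RPM with compound E at P0, and 7 of the 8 were lower, 2 of them called (the list includes Lfng and Hey2, which are Notch target genes). Summed over the 6 hair cell markers, they were 533 to 1091 RPM and 1037 to 1614 RPM, with 6 of 6 higher and 0 called. With the replicate block 4 of the 8 SC markers (all lower) and 2 of the 6 hair cell markers were called, as were 2.2% of all genes. The sum of the 6 mesenchyme markers was also apart, 938 to 1120 RPM with DMSO and 1205 to 1372 RPM with compound E. Of these, Lum was higher with no overlap (log2 fold change 0.44, edgeR adjusted p = 0.109), the other 5 were lower and 0 were called. The sums of the macrophage, glia and neuron, and endothelium and blood markers overlapped between the treatments. The part of these markers in the Psen2 decrease was not tested. By replicate, the SC marker sum was 4825, 9629, 8559 and 9597 RPM with DMSO and 4242, 4445, 4789 and 4517 RPM with compound E, lower in 4 of 4 pairs and least so in replicate 1. Without DMSO replicate 1, the Psen2 log2 fold change was −1.15 (edgeR adjusted p = 0.00776). In such bulk samples a change in the mixture of sorted cells and a change in RNA per cell cannot be told apart.

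The other γ-secretase subunits at P0 had log2 fold changes between −0.16 and 0.30 and none was called, with edgeR adjusted p of 0.455 or more. Ncstn ranged from 237 to 396 RPM with DMSO and from 258 to 399 RPM with compound E (log2 fold change 0.05, SE 0.157), and was higher with compound E in 4 of 4 pairs, by 0.010 to 0.19 on the log2 scale. Aph1b ranged from 82.3 to 101 RPM and from 90.8 to 147 RPM (0.30, SE 0.150), and was higher with compound E in 4 of 4 pairs while the groups overlapped. Aph1c was between 9.23 and 27.3 RPM with DMSO and between 15.0 and 26.7 RPM with compound E (0.19, SE 0.320). The log2 fold changes of Aph1a (0.03, SE 0.160) and Psenen (−0.16, SE 0.185) were within their standard errors. These standard errors leave room for changes of moderate size, most of all for Aph1c in this fit without a block. With the replicate number as a block, Aph1c had 0.26 (SE 0.145), beside 0.04 (SE 0.149) for Aph1a and −0.16 (SE 0.160) for Psenen. In that fit Aph1c was therefore not the least certain of them.

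Outside γ-secretase, Adam10, Rbpj and Maml1 were not called at P0 either. Adam10 was 377, 495, 456 and 465 RPM with DMSO and 449, 542, 488 and 503 RPM with compound E, a log2 fold change of 0.10 (SE 0.143), and was higher in 4 of 4 pairs with overlapping groups. Maml1 was 14.5 to 23.1 RPM with DMSO and 15.2 to 21.7 RPM with compound E (−0.04, SE 0.189). Rbpj was 59.7, 55.8, 38.5 and 34.5 RPM with DMSO and 57.6, 62.8, 33.9 and 40.3 RPM with compound E (0.01, SE 0.228). In both treatments, replicates 1 and 2 (batches 1 and 2) lay above replicates 3 and 4 (batch 3). That split is between batches, and the log2 ratio within pairs was between −0.18 and 0.23.

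At P6 compound E left no member past the thresholds. Among all 15322 genes tested 0 were called by edgeR (0%) and 289 had an unadjusted p under 0.05 (1.89%). DESeq2, whose own filter left 20526 genes, called 13 (0.0633%). Of the 9 members, 2 had an unadjusted p under 0.05 and DESeq2 called 0. Psen2 was 19.9, 23.0 and 15.9 RPM with DMSO and 18.3, 15.0 and 15.3 RPM with compound E. The groups overlapped, and the log2 fold change was −0.27 (SE 0.233, edgeR adjusted p = 1.00), with 3 of 3 pairs lower by −0.61 to −0.05.

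Aph1c and Adam10 at P6 were the members whose treatments did not overlap, both higher with compound E. Aph1c was 25.3, 23.2 and 25.0 RPM with DMSO and 39.3, 37.4 and 30.6 RPM with compound E, a log2 fold change of 0.56 (SE 0.177). Adam10 was 530, 533 and 592 RPM with DMSO and 648, 713 and 722 RPM with compound E (0.35, SE 0.133). All 3 pairs were higher for each gene. Of all genes tested, 7.19% had groups that did not overlap and 3.04% did so in this direction, and the edgeR adjusted p of both genes was 1.00. Both had an unadjusted p under 0.05, as did 1.89% of all genes. With the replicate number as a block, edgeR adjusted p was 0.534 for Aph1c and 0.478 for Adam10.

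The SC marker sum was lower with compound E in all 3 P6 pairs, at 5551, 4281 and 2185 RPM with DMSO and 2779, 2154 and 1106 RPM with compound E in replicates 1 to 3. Of the 8 SC markers 7 were lower (median log2 fold change −0.80), edgeR called 0 and 2 had an unadjusted p under 0.05. All 3 macrophage markers tested were higher (median 1.52) with 0 called, and their sums overlapped, at 1.66 to 26.3 RPM with DMSO and 5.25 to 65.8 RPM with compound E. The hair cell and mesenchyme sums overlapped too. The part of these markers in the P6 values was not tested.

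Maml1 was the member with the most negative difference at P6. It was 20.0, 14.6 and 17.9 RPM with DMSO and 12.3, 10.2 and 14.8 RPM with compound E (−0.48, SE 0.225, edgeR adjusted p = 1.00). All 3 pairs were lower, and the highest compound E library was just above the lowest DMSO library. For Ncstn, Aph1a, Aph1b, Psenen and Rbpj the log2 fold changes were between −0.09 and 0.15, each smaller than its standard error without a block. With the replicate number as a block, Ncstn (0.12, SE 0.0959) and Aph1b (0.17, SE 0.116) were larger than theirs. In that fit the edgeR adjusted p was 0.794 for Ncstn, 0.781 for Aph1b and 0.683 for Maml1 (−0.48, SE 0.182).

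The response of Psen2 at P6 against that at P0 was tested as an interaction over the 14 libraries. Its log2 fold change was 0.92 higher at P6 (SE 0.272, edgeR adjusted p = 0.617), and 0.76 to 1.09 higher over the alternatives, so a difference between the ages did not pass the thresholds. Of all 17090 genes 0 were called in this test (0%) and 811 had an unadjusted p under 0.05 (4.75%). DESeq2 called 33 of the 15879 genes its own filter left (0.208%). With the replicate block 16 genes were called (0.0936%) and the edgeR adjusted p of Psen2 was 0.157. Of the members Psen2 alone had an unadjusted p under 0.05, and the others had log2 differences from −0.43 (Maml1) to 0.39 (Aph1c).

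**Figure D2:**
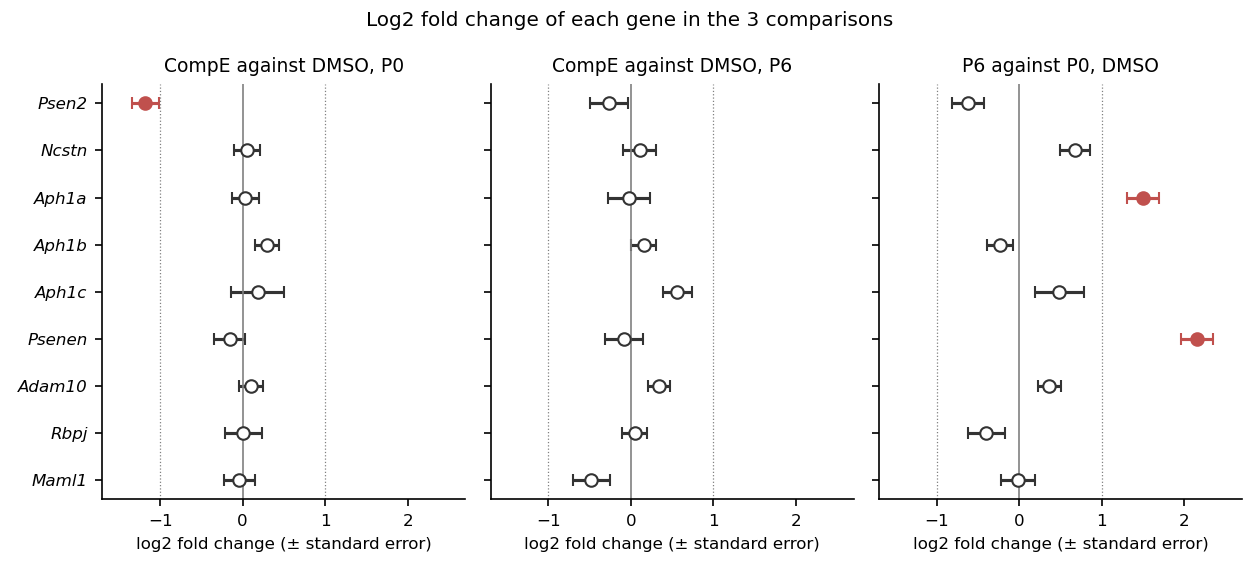
Points give edgeR's log2 fold change of each gene with its standard error for compound E against DMSO at P0, the same at P6, and P6 against P0 with DMSO, and dotted lines mark a 2-fold change. Filled red points passed the thresholds: Psen2 (−1.18) at P0, and Aph1a (1.50) and Psenen (2.15) with age.

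With age, 2 of the 9 genes were called, the subunits Psenen and Aph1a, both higher at P6 than at P0 with DMSO. Psenen was 7.30, 6.73, 8.80 and 7.16 RPM at P0 and 34.3, 34.6 and 26.1 RPM at P6. Its means were 7.50 ± 0.898 RPM (SD, n = 4) and 31.7 ± 4.84 RPM (SD, n = 3), a log2 fold change of 2.15 (SE 0.196, edgeR adjusted p = 7.14e-06), or 4.45-fold. Aph1a was 12.1, 9.54, 8.16 and 10.5 RPM at P0 and 33.3, 26.1 and 21.3 RPM at P6, with means of 10.1 ± 1.64 (SD, n = 4) and 26.9 ± 6.07 RPM (SD, n = 3). That is a log2 fold change of 1.50 (SE 0.197, edgeR adjusted p = 1.68e-04), or 2.83-fold. For neither gene did the ages overlap, and the compound E libraries were apart in the same way, 6.14 to 7.61 against 24.7 to 37.0 RPM for Psenen and 9.12 to 12.5 against 22.0 to 33.1 RPM for Aph1a. Over all 17090 genes 7.12% were called with age, 3.74% as higher, and 12.4% were higher with no overlap. The ages were also separate batches (1 to 3 at P0, 4 to 6 at P6), so age and batch cannot be told apart in any of these values.

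Cell type markers moved with age as well. Of the 8 SC markers 7 were lower at P6 with DMSO (median log2 fold change −1.44, beside −0.05 over all genes), and 3 were called, Matn4 (−4.07), Jag1 (−1.74) and Sox2 (−1.37). Their sum was 4825 to 9629 RPM at P0 and 2185 to 5551 RPM at P6. Of the hair cell markers 5 of 6 were lower and Atoh1 was called (−2.97), and of the glia and neuron markers Tubb3 was called, as higher (3.06). None of the 6 mesenchyme markers was called, and Lum had the lowest p of them (1.49, edgeR adjusted p = 0.0124). Macrophage markers (5 of 5 tested higher) and endothelium and blood markers (3 of 5 higher) had 0 called. The part of these markers in the age differences was not tested.

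Both genes share sequence with other loci, and Psenen is short. Psenen has 1275 and Aph1a 3450 exonic bases (union over transcripts). Over 5 bins of genes by exonic length, the bin of the shortest genes, which holds Psenen, had a median log2 fold change with age of 0.05 with 159 of 3091 called higher and 84 lower. The next bin, which holds Aph1a, had 0.04 with 165 of 3093 higher and 97 lower, and the bin of the longest genes had −0.14 with 76 higher and 132 lower. Of the 38-base windows of the longest annotated protein-coding transcript, 40.1% for Psenen and 49.8% for Aph1a also occurred in another gene, in Gm12396 and Gm20369 for Psenen and in Gm15429, Car14 and Jagn1 for Aph1a. Gm12396, Gm20369 and Gm15429 are not among the counted symbols, so the unstated rule for reads that map to several places could change the levels of both genes and the Aph1 shares given below. Car14 overlaps 445 exonic bases of Aph1a on the opposite strand and had 224 RPM at P0 and 468 RPM at P6 with DMSO. U2af1l4, on the opposite strand from Psenen, overlaps 119 of its exonic bases and had 27.8 and 24.2 RPM. The use of strand in counting is not given in the sources used here, and the part of these overlaps in the age differences was not tested.

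Ncstn and Psen2 passed an adjusted p of 0.05 with age but not the thresholds. Ncstn was 396, 307, 237 and 322 RPM at P0 and 616, 402 and 419 RPM at P6 with DMSO (log2 fold change 0.68, SE 0.183, edgeR adjusted p = 0.0170). Psen2 differed in the other direction, with a mean of 31.9 RPM at P0 and 19.6 RPM at P6 (−0.62, SE 0.194, edgeR adjusted p = 0.0335). The ages did not overlap for either gene, as for 12.4% of all genes that were higher and 18.7% that were lower. Of all genes, 22.5% passed that looser rule, 11.8% as higher and 10.7% as lower. Without both libraries of P6 batch 6, the batch with the highest summed mesenchyme markers (3318 and 4040 RPM, against 915 to 2473 RPM in the other P6 libraries), the Psen2 difference was −0.45 (edgeR adjusted p = 0.132). Psen2 also missed 0.05 without P0 DMSO replicate 1, 2 or 4 or P6 DMSO replicate 1 or 3 (adjusted p of 0.0633 to 0.131) and with no filter on low counts (0.0617). Ncstn missed it without P6 DMSO replicate 1, its highest P6 DMSO library (0.47, edgeR adjusted p = 0.0897).

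For the remaining members no difference with age passed either rule. Adam10 was higher at P6 with no overlap (0.36, SE 0.139, edgeR adjusted p = 0.0759). Rbpj (−0.40, SE 0.220, edgeR adjusted p = 0.215) had mean levels of 47.1 ± 12.5 RPM (SD, n = 4) at P0 and 33.8 ± 1.78 RPM (SD, n = 3) at P6, and the 2 P0 libraries of batch 3 were at 38.5 and 34.5 RPM. Aph1b (−0.23, SE 0.157), Aph1c (0.49, SE 0.302) and Maml1 (−0.01, SE 0.202) overlapped between the ages.

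Compared per length, as RPM per kilobase of exon union, the subunit genes differed widely in level within a library group. At P0 with DMSO, Adam10 (91.2) and Ncstn (79.4) were highest and did not differ beyond their spread over libraries. Aph1b (18.1) came next, apart from Ncstn above and Psen2 below. Psen2 (7.37) and Psenen (5.88) overlapped, and Rbpj (3.70), Aph1c (3.49), Maml1 (3.33) and Aph1a (2.92) formed the lowest set, each overlapping its neighbor. With compound E at P0, Psen2 was at 3.34 RPM per kilobase and overlapped Maml1 and Aph1a, its neighbors at the low end.

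At P6 with DMSO the order had changed in the middle. Ncstn (121) and Adam10 (112) again overlapped at the top, and Psenen (24.8 RPM per kilobase) was now the next highest, apart from Aph1b (14.7) below it. Aph1a (7.80) followed, apart from Aph1b above and Aph1c (4.71) below. Aph1c and Psen2 (4.52) overlapped, and Maml1 (3.16) and Rbpj (2.65) were lowest and overlapped. Divided by the longest transcript instead of the exon union, 20 of the 36 levels moved by more than their spread, Ncstn ranked above Adam10 in every group (with overlapping libraries except at P6 with DMSO, where they were apart), and Psen2 at P0 with DMSO stood at 15.8 and overlapped Aph1b (18.3). So the places of genes with similar levels depend on the length used.

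**Figure D3:**
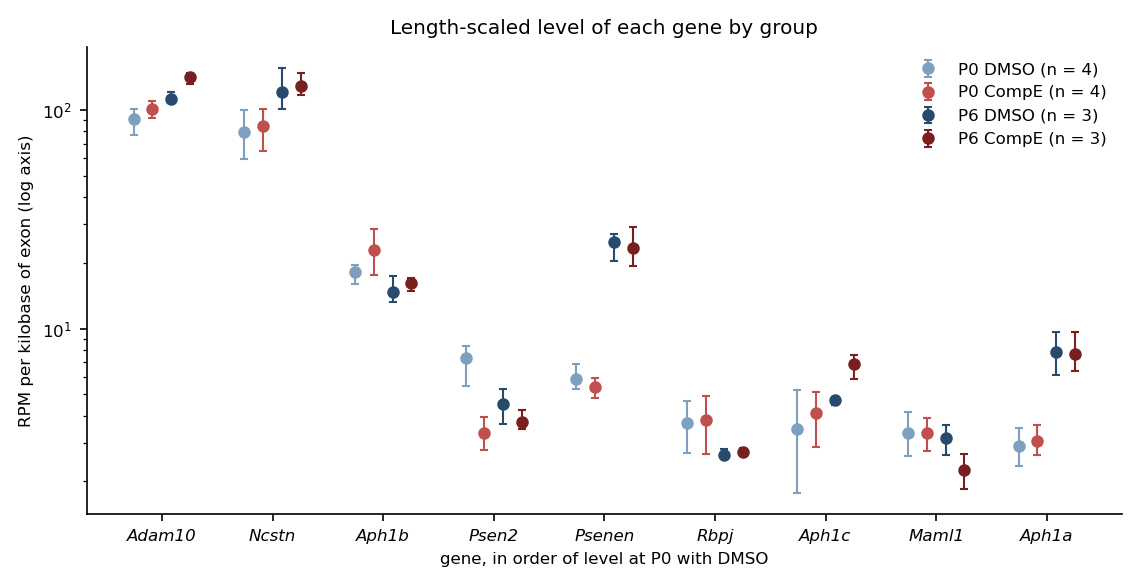
Points are group means of RPM per kilobase of exon union (log axis) and bars run from the lowest to the highest library, for each gene in the order of its level at P0 with DMSO. Adam10 and Ncstn lie near 100 in every group, and Psenen and Aph1a are higher in both P6 groups than in both P0 groups.

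The 3 Aph1 genes encode alternative scaffolds, so a complex holds a single Aph1 protein. Per length, Aph1b made up 73.8% ± 4.43 of the summed Aph1 level at P0 with DMSO (SD, n = 4) and 53.9% ± 1.00 at P6 (SD, n = 3). Aph1a made up 11.9% ± 1.81 and 28.5% ± 2.62 in the same groups, and Aph1c 14.3% ± 6.13 and 17.6% ± 2.30. With DMSO the Aph1a and Aph1b shares did not overlap between the ages, and the Aph1c shares did. With compound E the Aph1a share was 10.3% ± 1.82 at P0 and 24.7% ± 3.28 at P6, and the Aph1b share was 75.6% ± 5.22 and 52.9% ± 4.52. The Aph1c share with compound E was 14.0% ± 4.55 at P0 and 22.4% ± 2.38 at P6, and with compound E none of the 3 shares overlapped between the ages. At P6 the Aph1c share did not overlap between the treatments (15.3% to 19.9% with DMSO, 20.1% to 24.9% with compound E), and at P0 it did. These shares are descriptions with no test.

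**Figure D4:**
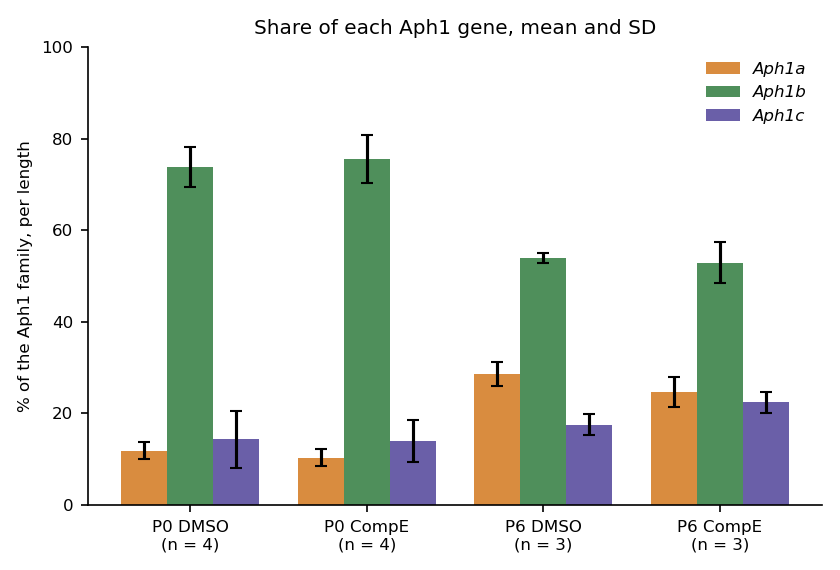
Bars give the mean share of Aph1a, Aph1b and Aph1c in the summed length-scaled Aph1 level of each library (percent, axis from 0 to 100) with the SD. With DMSO the Aph1b share is 73.8% at P0 and 53.9% at P6, and the Aph1a share is 11.9% and 28.5%.

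Aph1b and Aph1c are neighboring copies, and how the deposited counts split their reads is uncertain. They lie on the minus strand of chromosome 9 (GRCm38, GENCODE M21) at chr9:66775202-66795490 and chr9:66814994-66834726, 19503 bases apart. Their coding sequences were identical at 745 of 775 aligned positions (96.1%), against 60.3% for Aph1a and Aph1b. Of their 38-base transcript windows, 23.6% of Aph1b and 22.3% of Aph1c occurred in another gene, nearly all in the partner copy. Summed, which removes the split, the pair had log2 fold changes of 0.28 with compound E at P0 (edgeR adjusted p = 0.417), 0.26 at P6 (adjusted p = 1.00) and −0.08 with age (adjusted p = 0.697).

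The other members are spread over the genome. On the minus strand of chromosome 1 lie Psen2 (chr1:180227004-180263438) and Ncstn (chr1:172066013-172082795). Adam10 is at chr9:70678997-70780229, Aph1a at chr3:95893969-95898288 and Rbpj at chr5:53466152-53657362, all on the plus strand. Psenen (chr7:30561863-30563627) and Maml1 (chr11:50255634-50292311) are on the minus strand. No 38-base window of Psen2 or Adam10 occurred in another gene, while 25.5% of Rbpj windows did, mostly in the pseudogene Rbpj-ps3, which is not among the counted symbols either.

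Psen2 was then set against all genes, as the member with the largest change at P0. Over the 14 libraries, Pearson's r of log2(RPM + 1) was highest with Ak3 (0.961), Palm (0.957), Rab3b (0.952), Asrgl1 (0.949) and Mocs2 (0.943) among the 9987 genes whose mean reached 10 RPM. It was lowest with Nt5dc3 (−0.920), Sowaha (−0.903) and E530011L22Rik (−0.900). Palm, for example, had means of 197 RPM with DMSO and 79.2 RPM with compound E at P0, and 131 and 89.6 RPM at P6. Hey1, a Notch target gene, had an r of 0.913, and the other targets were between 0.697 (Lfng) and 0.878 (Nrarp). With the other members r was between −0.542 (Aph1c) and 0.280 (Rbpj). The libraries share treatment, age and batch, so these values describe a common pattern over the 4 groups and carry no test.

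**Figure D5:**
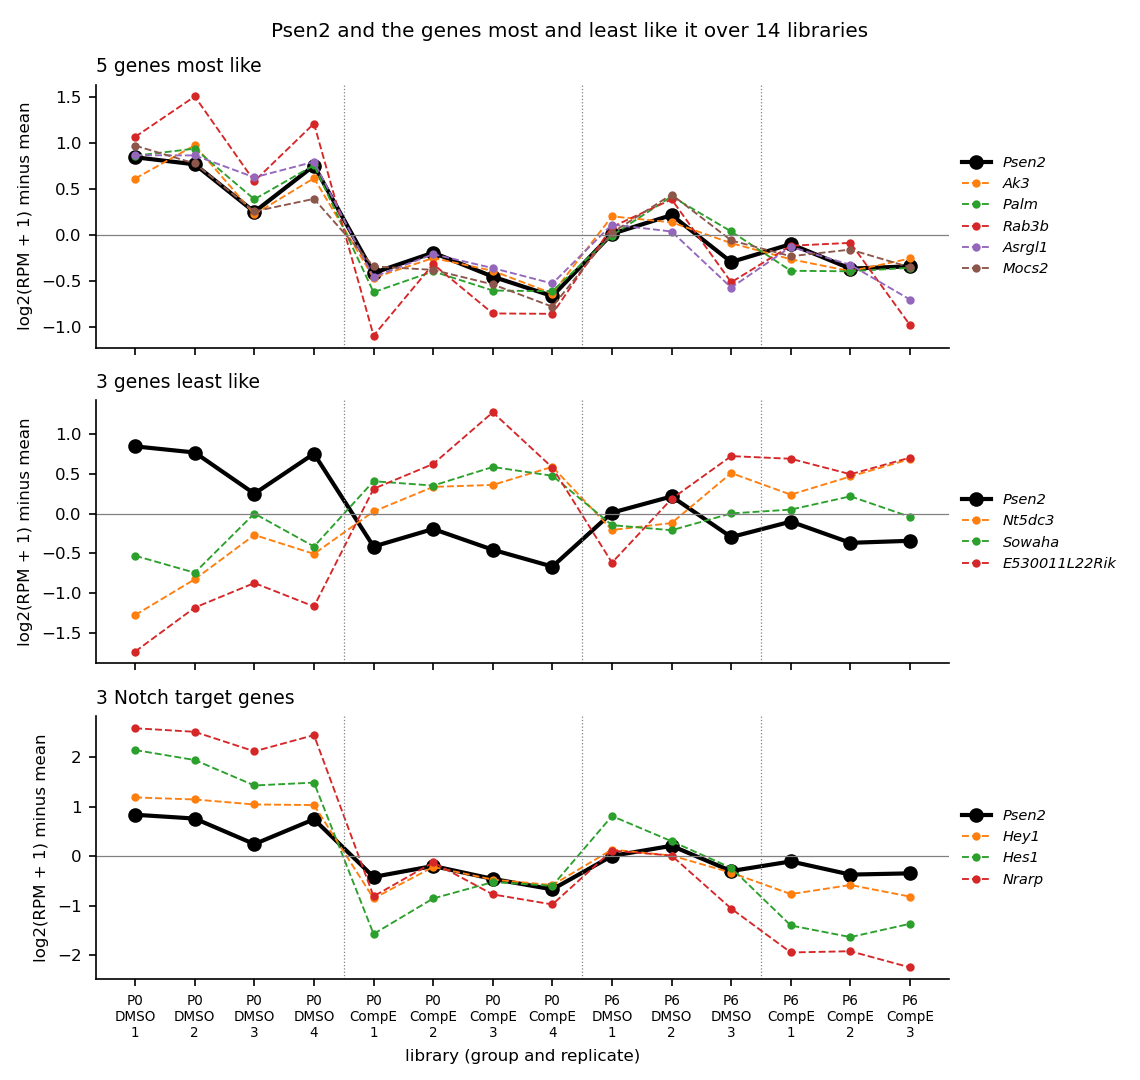
Lines give log2(RPM + 1) minus the gene's mean over the 14 libraries, ordered by group and replicate, for Psen2 (black) with the 5 genes most like it, the 3 least like it and 3 Notch target genes. Psen2 and the genes most like it are high in the 4 P0 DMSO libraries and low in the 4 P0 compound E libraries, and the 3 Notch target genes go lower than Psen2 in the P6 compound E libraries.

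Around these 9 genes stand partner genes of the pathway, 53 in all, of which 52 were tested. With compound E at P0, 0 of 52 were called by edgeR and by DESeq2, and 5 had an unadjusted p under 0.05 (13.4% of all genes did). Fhl1, a LIM-domain gene with an isoform that binds Rbpj, had a mean of 10.1 RPM with DMSO and 5.34 RPM with compound E and no overlap between the groups (log2 fold change −0.97, SE 0.195, edgeR adjusted p = 0.0230). Maml3, a coactivator related to Maml1, had 26.8 and 35.6 RPM (0.37, edgeR adjusted p = 0.133). Tspan14, a tetraspanin that escorts Adam10, had 384 and 542 RPM (0.46, edgeR adjusted p = 0.292). The median log2 fold change over the partners was −0.01, beside 0.01 over all genes.

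At P6, 0 of 52 partners were called by edgeR and by DESeq2 and 0 had an unadjusted p under 0.05. Those with the lowest p were Tspan33, also an Adam10 tetraspanin (7.82 RPM with DMSO and 12.0 RPM with compound E, log2 fold change 0.64), the ubiquitin ligase Dtx4 (35.4 and 46.8 RPM, 0.41) and the Mediator subunit Med12 (33.6 and 25.7 RPM, −0.38). Their median was 0.10 at P6, beside 0.00 over all genes. In the interaction 0 of 52 were called by either tool and 2 had an unadjusted p under 0.05, Tspan33 (0.93 higher at P6) and Med12 (−0.72), and Bend6 (0.86) came next.

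With age, 5 of 52 partners were called, 3 higher and 2 lower, beside 7.12% of all genes (4.53% without P6 DMSO replicate 2). Arrb1, an arrestin that binds γ-secretase, had 8.38 RPM at P0 and 54.8 RPM at P6 with DMSO (log2 fold change 2.76, edgeR adjusted p = 2.16e-05). Ifitm3, a membrane protein that associates with γ-secretase, had 3.43 and 28.5 RPM (3.11, edgeR adjusted p = 0.00576), with a range of 7.13 to 45.9 RPM over the P6 libraries. The histone deacetylase Hdac1, found in Rbpj corepressor complexes, had 50.5 and 103 RPM (1.11, edgeR adjusted p = 0.00164). Tspan33 was lower at P6, 22.3 RPM at P0 against 7.82 RPM (−1.43, edgeR adjusted p = 6.76e-04). Rbpjl, a paralog of Rbpj, had 4.37 RPM at P0 and 0.176 RPM at P6, where 1 library had 0 counts (−4.49, edgeR adjusted p = 0.00289). Its fitted change depended on single libraries, at −6.14 without P6 DMSO replicate 2 and −3.96 without P6 DMSO replicate 1. By list, 2 of 10 γ-secretase interactors, 1 of 7 tested Adam10 partners and receptor proteases, 0 of 7 coactivators, 2 of 15 Rbpj corepressors and partners, and 0 of 13 genes of intracellular domain turnover were called.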

How the data were processed

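Polyadenylated RNA of sorted Lfng-EGFP+ SCs was amplified as full-length cDNA without molecular identifiers and sequenced. Per the submitters' processing notes, the authors trimmed reads with Trim Galore 0.6.0 and cutadapt 1.15 and mapped them with STAR 2.7.0f to mm10 (the paper's methods name another STAR version). They deposited raw counts per gene symbol, a table for each age, with no normalization or filter. The annotation release, the handling of reads that map to several places and the use of strand are not given in the sources used here.

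Groups, replicate numbers and batches came from the labels. RPM was computed as a count divided by the library's total, and levels between genes were compared per kilobase of exon union (GENCODE M21). Tests used edgeR 4.0.16 in R 4.3.3 (TMM, filterByExpr at a minimum count of 10, glmQLFit, glmQLFTest), with p-values adjusted over all genes tested. Treatment was the single term of the fit at each age, and the interaction and the age comparison were fitted over all 14 libraries. The thresholds are those of the study's methods, whose tool, DESeq2, was run here (1.42.0) as an alternative. For compound E against DMSO, the study's legend gives more significant genes at each age than edgeR or DESeq2 called here. The reason for that was not tested. The 9 genes, the partner and marker lists and the rules were chosen with earlier results of these data known. All 9 genes are named in every comparison. Of 53 partners, those called are named, or the 3 with the lowest p where fewer than 3 were called. Genes like Psen2 were ranked by Pearson's r of log2(RPM + 1).

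In the labels, P0 replicates 1, 2 and 3 carry batch numbers 1, 2 and 3, P0 replicate 4 also carries 3, and P6 replicates 1, 2 and 3 carry 4, 5 and 6. Departures of a library from its group's mean had correlations over genes of 0.144 to 0.458 (P0) and 0.252 to 0.605 (P6) between libraries of the same number. Between different numbers they were −0.268 to 0.0910 (P0) and −0.373 to 0.0883 (P6). Departures cancel within a group, so positive values between same numbers lower those between different numbers, which are no separate support. On the same-number values, same-numbered libraries were paired in the blocked fits. Replicate libraries differed by more than sampling noise (chi-square divided by its degrees of freedom was 19.0 or more). Totals were at least 19415066 counts, but reads without molecular identifiers do not give the counting error of molecules, so the precision given is the spread between libraries. Alternatives were DESeq2, DESeq2's size factors in edgeR, no filter, edgeR's newer quasi-likelihood method, replicate or batch blocks, all 14 libraries in a single fit, Aph1b and Aph1c summed, a looser rule (adjusted p of 0.05, any fold), the longest transcript as length, and leaving out libraries, pairs or P6 batch 6. The fits were tested on simulated data. Single-cell data of the study were not analysed here.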

Additional observations from a re-analysis of the deposited data

How the results depend on the processing

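The Psen2 decrease at P0 kept its direction under all 20 alternatives (log2 fold change −1.29 to −1.07) and its call under 11, so the count of members called at P0 ranged from 0 to 1 when libraries or pairs were left out. DESeq2 gave −1.18 with an adjusted p of 1.14e-08. Psenen and Aph1a kept their calls with age under 20 of 20 alternatives, from 2.05 to 2.32 and from 1.33 to 1.68. The replicate block changed no call of a member. It moved the count over all genes at P0 from 195 to 350 and that of the interaction from 0 to 16, and calls among the 7 target genes at P0 from 5 to 7. Under the looser rule (adjusted p of 0.05, any fold), 1 partner passed at P0, and 4 members and 10 partners passed with age. Leaving out single libraries gave 3 to 5 called partners with age. Ifitm3 was called under 14 of 20 alternatives (adjusted p up to 0.0215), and Hdac1 and Rbpjl under 19 of 20 (without P6 DMSO replicate 2, adjusted p 0.0111, and without P6 DMSO replicate 3, 0.0124). DESeq2 called 443 of 16803 genes at P0 and 1993 of 17932 with age, against 195 of 15937 and 1216 of 17090 by edgeR. Without single libraries the count over all genes was 80 to 225 at P0 and 804 to 1260 with age, and without a P0 pair it was 1 to 206. Without both libraries of P6 batch 6, values near 0 changed sign, Rbpj at P6 to −0.014, Rbpj in the interaction to −0.021 and Maml1 with age to 0.011.

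Some members that were not called changed sign when libraries were left out, while Psen2 and Adam10 did so in no comparison. At P0 the ranges were −0.049 to 0.16 for Ncstn, −0.046 to 0.12 for Aph1a, −0.050 to 0.46 for Aph1c, −0.16 to 0.14 for Rbpj and −0.16 to 0.10 for Maml1. At P6 they were −0.0041 to 0.32 for Ncstn, −0.21 to 0.16 for Aph1a, −0.26 to 0.051 for Psenen and −0.0074 to 0.12 for Rbpj. In the interaction they were −0.056 to 0.28 for Ncstn, −0.23 to 0.13 for Aph1a, −0.23 to 0.018 for Aph1b, −0.091 to 0.23 for Psenen and −0.088 to 0.22 for Rbpj, and with age −0.14 to 0.15 for Maml1. Of the 685 member values under alternatives, 627 kept their direction and side of the thresholds, 9 lost a call and 49 changed sign, and the cause was not tested. No depth-matched fit was run, and reads without molecular identifiers do not count molecules. With 3 or 4 libraries per group, changes of the size of the standard errors were not detectable.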
